A study of Mus musculus with 2 samples.

Results

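Genes whose symbols name translation initiation, elongation or release factors were compared between the distal and the proximal side of mouse limb-mesenchymal organoids. They were all rows of the authors' deposited table whose symbol begins with Eif and a digit from 1 to 6 or with Eef and 1 or 2, together with Etf1, Gspt1 and Gspt2. The rule found 69 of the 13916 protein-coding genes listed. By function, 42 are initiation factors, 7 are regulators of initiation, 7 are elongation factors, 7 are regulators of elongation and 3 are release factors. The other 3 (Eif4a3, Eef1e1 and Eif1ad) carry a factor's symbol but are known for other roles. Eif5a and Eif5a2 were placed with the elongation factors, where they are known to act. Eef1a2, Eif4e1b and Eif4ebp3, whose symbols also match the rule, are not analysed here.

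Translation begins when eIF2 brings the initiator tRNA to the small ribosomal subunit and the eIF4F complex recruits that subunit to the capped end of an mRNA. eIF1, eIF1A, eIF5 and eIF5B then select the start codon and join the large subunit, with eIF3 as the scaffold. Elongation runs on eEF1A, which delivers aminoacyl-tRNA, eEF2, which moves the ribosome by a codon, and eIF5A, which carries the modified lysine hypusine and helps the ribosome past slow stretches. Termination needs eRF1 (Etf1), which reads the stop codon, and its GTPase eRF3 (Gspt1 or Gspt2). The distal limb bud mesenchyme is known as a zone of proliferating progenitors under Fgf signals from the overlying ridge.

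The cells were embryonic limb mesenchyme of Slc:ICR mice, kept as organoids in medium with Fgf8b/Wnt3a for 48 h, and at day 2 the 5 organoids taken, which stemmed from 4 surrogate cultures, were snap-frozen. In photo-isolation chemistry, reverse transcription is run inside a section with caged primers, and ultraviolet light frees the cDNA of the chosen area. Sections were cut at 10 µm, and 5 distal and 5 proximal regions, each with its own barcode, were pooled into 1 distal and 1 proximal library. Both groups therefore share strain, medium and day, and the titles of both samples carry the name PIC26. They differ in the side of the organoid and in the library, which cannot be told apart. A region is not an independent culture, so the deposited p-values measure the spread between regions of 2 libraries. In such bulk regions, fewer cells of a type and less RNA per cell cannot be told apart.

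Depth was low and uneven. Size factors, the relative depths of the regions as the lowest means show them, ran from 0.329 to 0.832 in the distal regions and from 1.502 to 2.42 in the proximal ones. The side of each region is not labelled and was inferred from the deposited log2 changes at those means. About 418677 counts in distal and 1380200 in proximal lie behind the listed genes. Markers of limb mesenchyme were all listed (10 of 10), with a summed level of 1035 normalized counts in distal and 790 in proximal, but they did not go one way. By the authors' deposited table, Msx1, Lhx2 and Hoxd13 were called higher in distal, and Pdgfra and Tbx5 were called lower there. The muscle markers (6 of 6 listed) summed to 11.8 in distal and 97.3 in proximal. Cartilage markers (3 of 4 listed) summed to 1021 in distal and 647 in proximal, of which Sox9 made up 842 and 522, while Acan stood at 2.23 and 6.63. Endothelial, surface ectoderm, neural crest and blood markers each summed to 5.11 or less on either side, and Matn1, Tek, Krt5, Krt8, Gata1 and 3 globin genes are not analysed here. The part of these other cells in the results below was not tested.

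By the authors' deposited table, 3 of the 69 genes reached an adjusted p under 0.05, all with more RNA in distal, and none did so with more in proximal. These were Eif5a, the elongation factor with hypusine, Eif4g2, an eIF4G-like scaffold without a site for the cap-binding protein, and Eif4a1, the RNA helicase of eIF4F. That is 4.35% of the members, while 0.977% of all listed genes passed in either direction and 0.395% passed as higher in distal. The members are better covered than most genes, with a median mean of 11.2 normalized counts against 3.399 over all listed genes, per the authors' deposited table. Among the 37 members with a mean of at least 10, 8.11% passed, against 3.03% of all genes above that mean in either direction and 1.36% as higher in distal. The members' share thus stood above the background with and without the minimum, and rests on 3 genes.

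The members' changes centred near 0, with values from -2.59 to 1.19. The median log2 change, distal over proximal, was 0.02 over the members and 0.07 over all listed genes in the authors' deposited table. Over all listed genes, 54.5% of the changes were positive. Genes whose only count lay in 1 proximal region, as sides were assigned here, carry a deposited log2 change of 1.19. Values of such genes at the lowest means thus lean towards distal, and the median of 0.07 includes them. With a mean of at least 10, the medians were 0.12 over 37 members and 0.00 over 3757 genes, and 25 of the 37 members (67.6%) were positive against 50.6% of all genes. For 29 of those 37 members (78.4%) the 95% interval of the log2 change, computed from the deposited standard error, lay within a change of 1 in either direction, against 73.6% of all genes with that mean. Over all 69 members the share was 43.5%, against 22.3% of all listed genes. For the members outside that share the data leave room for a change of 2-fold or more.

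**Figure D1:**
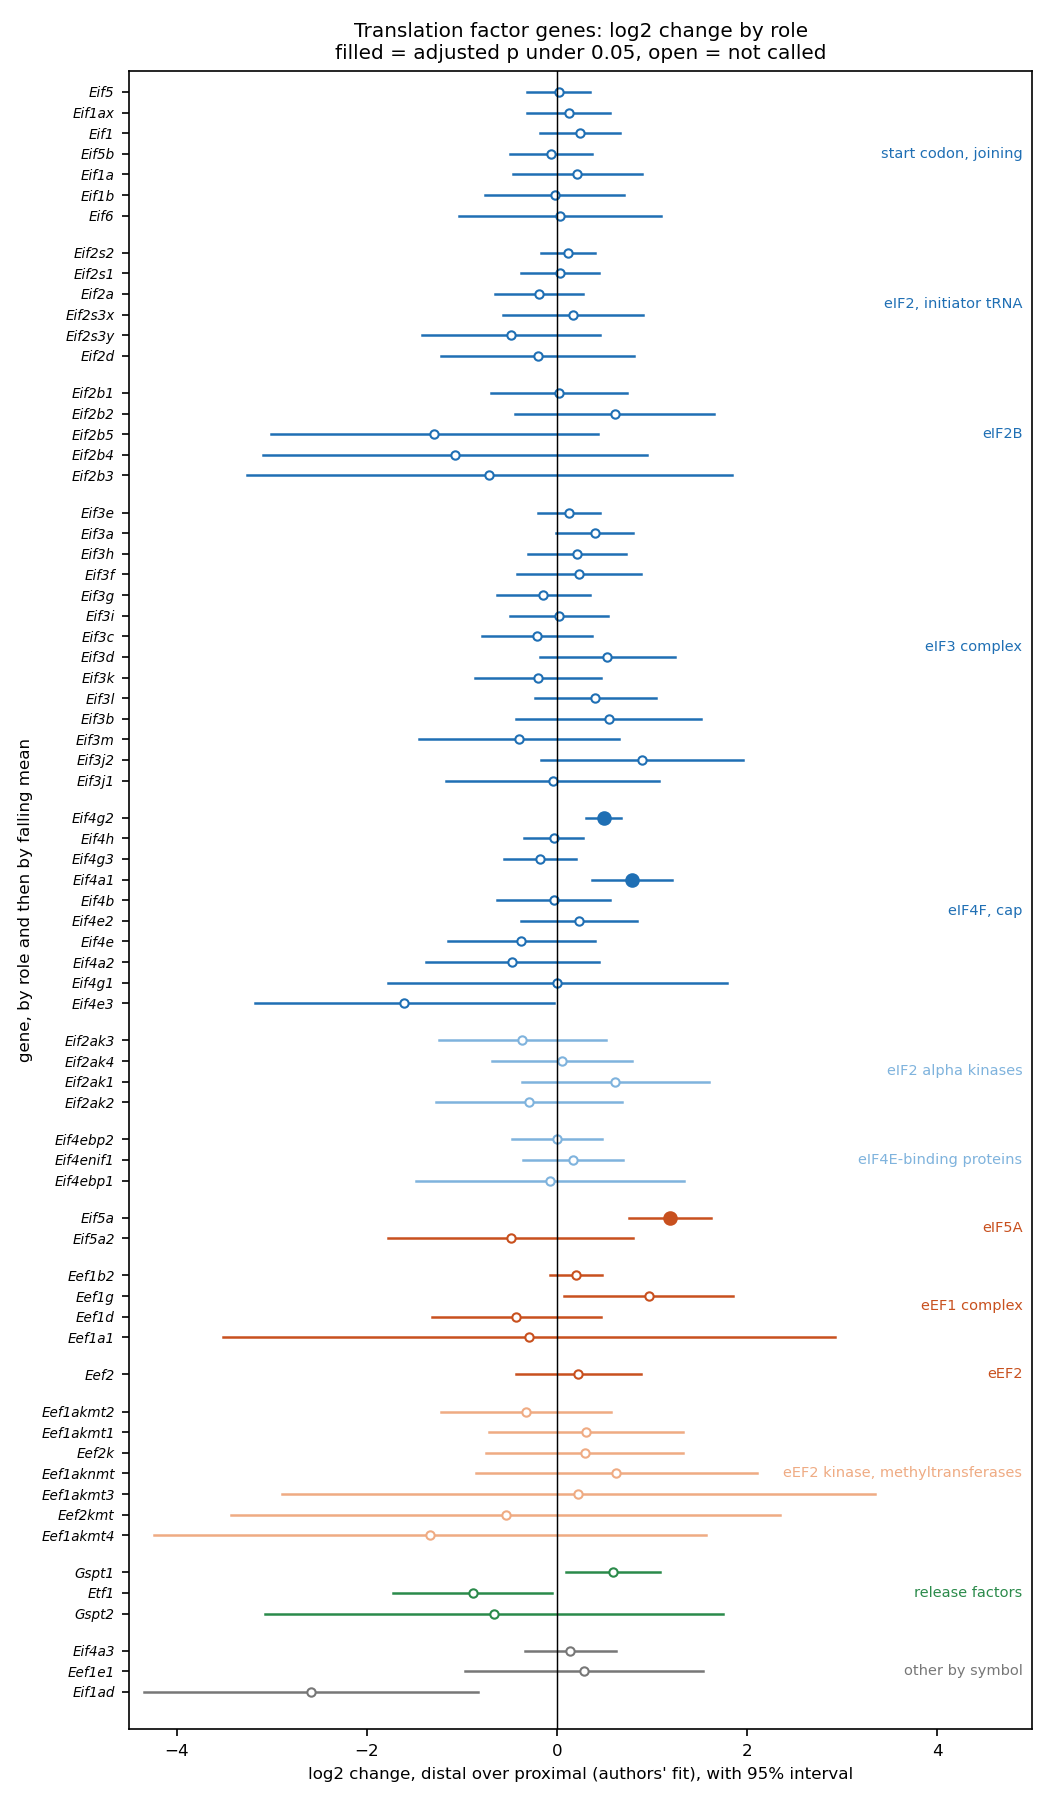
Log2 change of the 69 genes, distal over proximal (x axis), by role and falling mean (y axis), from the authors' deposited table, with bars for the 95% interval. Filled points are the 3 genes with an adjusted p under 0.05 (Eif4g2, Eif4a1 and Eif5a), all to the right of 0, and the bars widen as the mean falls.

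Without the adjustment, 5 members (7.25%) of the authors' deposited table had a p under 0.05 with more RNA in distal, as did 2.56% of all listed genes. The fourth and the fifth were Gspt1 and Eef1g. In the other direction 3 members (4.35%), Eif1ad, Etf1 and Eif4e3, had a p under 0.05, where 3.51% of all listed genes did. Those 5 further genes did not pass the adjusted test, and the share higher in proximal was near the background.

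**Figure D2:**
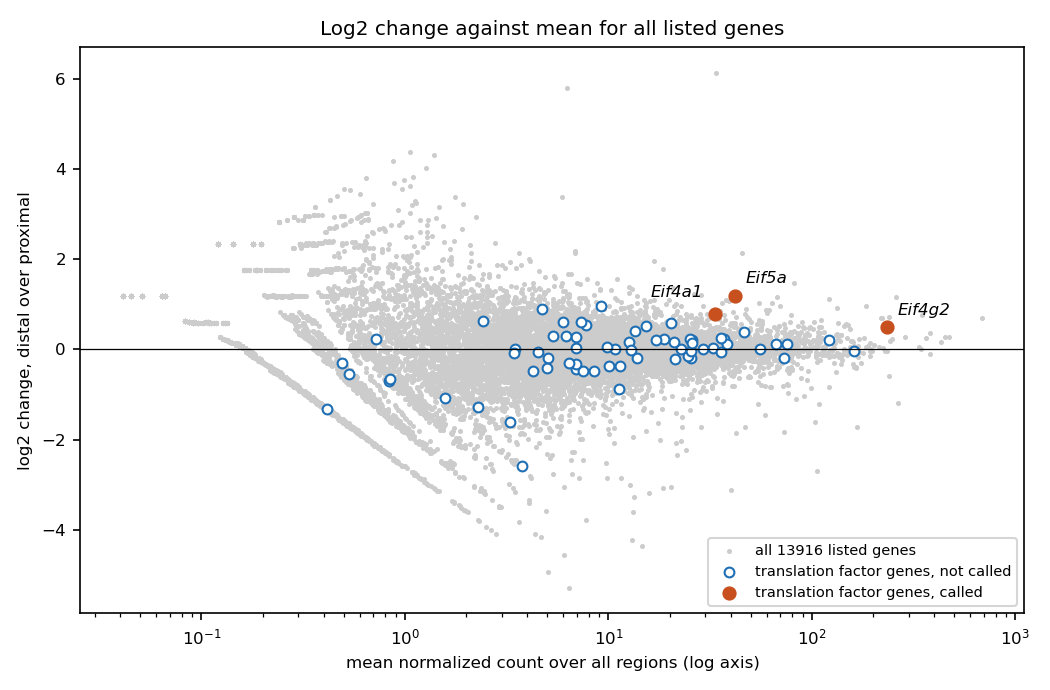
Log2 change (y axis) against the mean normalized count over all regions (x axis, log scale) for all 13916 listed genes in grey and the 69 translation factor genes as circles, from the authors' deposited table. The 3 called genes, filled, have means of 33.5 (Eif4a1), 42.1 (Eif5a) and 234 (Eif4g2), and the scatter of the grey points widens towards low means.

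The levels below are normalized counts per side, computed from the deposited mean and log2 change, and the counts are those levels multiplied by the summed size factors of the side. The table holds no value per region, so whether single regions of the sides overlap is not shown for members above a mean of 1.2.

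Eif5a (ENSMUSG00000078812, GRCm38 chr11:69916714-69921958, minus strand) had the largest positive change of the 69 genes. Its level was 58.5 in distal and 25.7 in proximal, from about 171 and 248 counts. The log2 change was 1.19 (SE 0.22, 95% interval 0.76 to 1.62) in the authors' deposited table, with an adjusted p of 1.97e-05, a 2.28-fold difference. The paralogue Eif5a2, which carries hypusine as well, stood at 3.54 in distal and 4.95 in proximal. Its log2 change was -0.49 (SE 0.66, 95% interval -1.78 to 0.80, adjusted p = 0.991) in the authors' deposited table, and the difference between the paralogues was not tested. The enzymes that make hypusine, Dhps and Dohh, were too thinly covered to be read, with means of 0.629 and 1.05 normalized counts in the authors' deposited table and intervals from -3.71 to 1.67 and from -2.48 to 2.21.

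Eif4a1 (ENSMUSG00000059796) lies on the same chromosome, at GRCm38 chr11:69666936-69672423 on the minus strand, 244 kb from Eif5a. Its level was 42.5 in distal and 24.5 in proximal, from about 124 and 237 counts, a 1.73-fold difference. The authors' deposited table gives a log2 change of 0.79 (SE 0.22, 95% interval 0.37 to 1.22) and an adjusted p of 0.0295. When all log2 changes were centred on the median of the listed genes, the value was 0.73 and the adjusted p was 0.0699. The call was lost there, with a median that includes the distal-leaning values at the lowest means. Centred on the median of genes above the median mean, the value was 0.81 and the adjusted p of the same test was 0.0213. The annotation places 3 small nucleolar RNA genes inside Eif4a1 on the same strand. Such genes overlap other members as well, among them the called Eif4g2 (Gm23262). Its paralogue Eif4a2 was at 6.32 in distal and 8.75 in proximal, with a log2 change of -0.47 (95% interval -1.38 to 0.44, adjusted p = 0.991) in the authors' deposited table.

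The promoters of Eif5a and Eif4a1 are shown because both genes were called. Eif4g2 was called as well, but no promoter was listed under its symbol in the source used. They are the 250 bases before the start in RefSeq (GRCm38.p6), at chr11:69921387-69921636 and chr11:69672424-69672673, both read on the minus strand. Capitals mark the E-box CACGTG, the letters that Myc family factors bind, and the CCAAT box.
Eif5a: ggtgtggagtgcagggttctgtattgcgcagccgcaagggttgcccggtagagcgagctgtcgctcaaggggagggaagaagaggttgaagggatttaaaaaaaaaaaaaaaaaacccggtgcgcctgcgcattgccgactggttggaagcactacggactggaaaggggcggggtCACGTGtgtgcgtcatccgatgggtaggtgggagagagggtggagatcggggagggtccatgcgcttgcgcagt
Eif4a1: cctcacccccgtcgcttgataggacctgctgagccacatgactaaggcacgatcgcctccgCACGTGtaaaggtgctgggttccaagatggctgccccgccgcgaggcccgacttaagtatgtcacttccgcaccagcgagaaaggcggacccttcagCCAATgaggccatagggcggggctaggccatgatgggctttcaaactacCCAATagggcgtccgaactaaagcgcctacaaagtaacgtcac

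The E-box stood 74 bases before the start of Eif5a and 189 bases before that of Eif4a1. Eif4a1 also had CCAAT at 92 and 43 bases before the start, and the Eif5a window had none. Of the 6 windows listed for Eif5a this is 1, and 3 of its 13 coding transcripts in GENCODE M21 start within 50 bases of its start. The single coding transcript of Eif4a1 there starts 106 bases from the RefSeq start, so none starts within 50 bases of the window shown. The E-box, searched on both strands with each motif counted on its own, was in 6.02% of all 32851 promoter windows and in 15 of the 68 windows of members (22.1%), which belong to 13 of 53 members matched by symbol. The GC box GGGCGG was in 32.7% of all windows and 67.6% of the members' windows, CCAAT in 33.8% and 25%, and the TATA box TATAAA in 12.4% and 7.35%. Several windows can belong to 1 gene and overlap, and a match of letters does not show binding. The windows compared were not matched for base composition or expression, and the part of either in these shares was not tested.

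Eif4g2 (ENSMUSG00000005610, GRCm38 chr7:111067750-111083030, minus strand) had the highest mean of the members, 234 normalized counts in the authors' deposited table, and the smallest of the 3 called changes. Its level was 273 in distal and 194 in proximal, from about 801 and 1877 counts. The log2 change was 0.49 (SE 0.09, 95% interval 0.31 to 0.67) in the authors' deposited table, with an adjusted p of 3.4e-05, a 1.41-fold difference. The other scaffolds did not pass. Eif4g3 stood at 68.2 in distal and 77.3 in proximal, with a log2 change of -0.18 (95% interval -0.56 to 0.20) in the authors' deposited table. Eif4g1, the main scaffold of eIF4F, was thinly covered at 3.49 and 3.48, and its interval from -1.78 to 1.79 leaves more than a 3-fold change open in either direction.

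**Figure D3:**
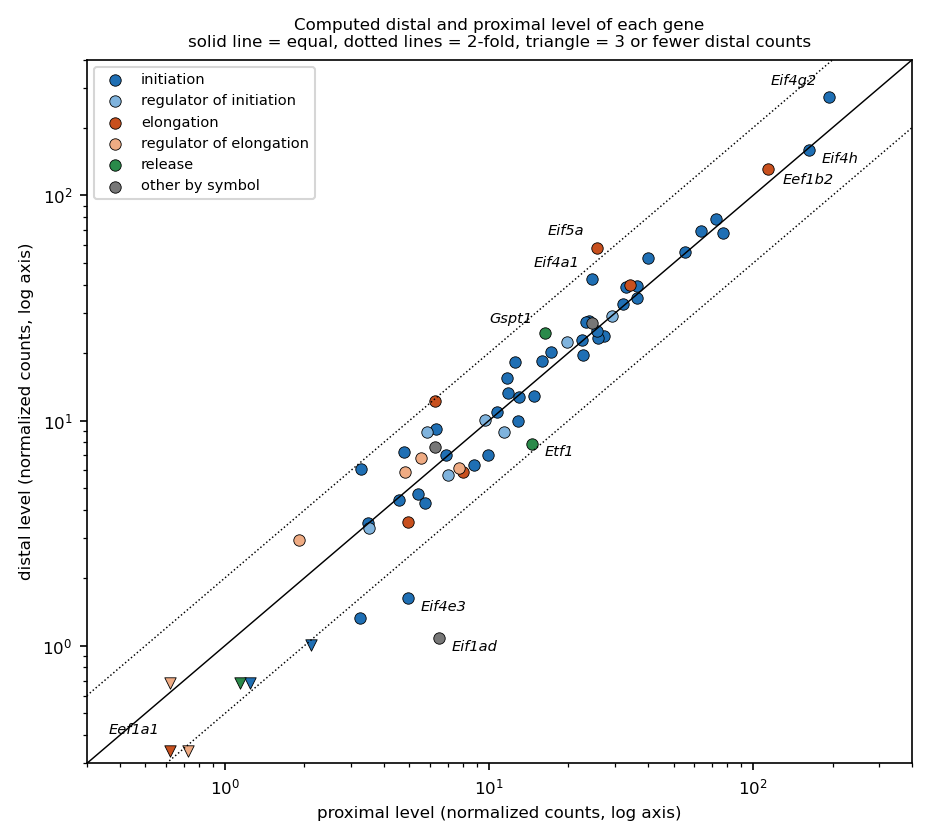
Computed distal level (y axis) against computed proximal level (x axis), both in normalized counts on log axes, for 68 genes. Eef1akmt4, with 0 distal counts, is not drawn. The solid line marks equal levels and the dotted lines 2-fold differences; Eif5a lies above the upper dotted line (58.5 against 25.7), and triangles mark genes with 3 or fewer distal counts.

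The group of eIF4F and cap-dependent recruitment, as drawn here, has 10 genes and counts Eif4g2, although it lacks a site for the cap-binding protein. Apart from Eif4g2 and Eif4a1 none of the 10 passed the adjusted test. Of the 10, 4 were positive, with a median log2 change of -0.03 per the authors' deposited table. Eif4h and Eif4b, cofactors of the helicase, had nearly equal point estimates on both sides. Eif4h stood at 158 in distal and 162 in proximal, with an interval of the log2 change from -0.34 to 0.27. Eif4b was at 25.1 and 25.7, with a wider interval from -0.62 to 0.56. Among the cap-binding proteins, Eif4e was at 9.96 and 12.9 and Eif4e2 at 20.2 and 17.2. Eif4e3 was lower in distal by its point estimate, at 1.63 against 4.94 normalized counts, from about 4.76 and 47.7 counts. In the authors' deposited table its log2 change was -1.60 with an unadjusted p of 0.046 (adjusted p = 0.888). The gene overlaps another coding gene on the same strand, Gm20696. Such overlaps were annotated for other members too, among them Eef1d (with Naprt) and Eef1akmt2 (with Fgfr2). How reads of an overlap were counted is not given in the sources used here.

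The genes of start codon selection and subunit joining were among the best measured, and none of the 7 passed. Eif5, the activator of the eIF2 GTPase, stood at 56.2 in distal and 55.5 in proximal, with a 95% interval of the log2 change from -0.32 to 0.35. Eif1ax was at 39.8 and 36.5, Eif1 at 39.0 and 32.9, and Eif5b, the joining GTPase, at 34.9 and 36.4. For 6 of the 7 genes the interval lay within a change of 1 in either direction. The exception was Eif6, which keeps ribosomal subunits apart, at 7.004 and 6.85 with an interval from -1.03 to 1.09. Eif1a, which encodes a protein closely like that of Eif1ax, and Eif1ax had log2 changes of 0.22 and 0.12 per the authors' deposited table.

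None of the 6 genes of eIF2 and initiator tRNA delivery passed, and 3 were positive. The beta subunit gene Eif2s2 was the best covered, at 78.3 in distal and 72.3 in proximal with an interval of -0.17 to 0.40. Eif2s1, whose product is the alpha subunit phosphorylated under stress, stood at 32.9 and 32.1. The gamma subunit has 1 gene on X and 1 on Y. Eif2s3x had a log2 change of 0.17 (95% interval -0.57 to 0.91) and Eif2s3y one of -0.48 (95% interval -1.42 to 0.45) in the authors' deposited table, intervals that overlap.

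The 5 subunit genes of eIF2B, which reloads eIF2 with GTP, were thinly covered and spread widely. Eif2b1, the regulatory alpha subunit, was the single one with a mean of at least 10, at 10.9 in distal and 10.8 in proximal. Eif2b2 had a log2 change of 0.61 and Eif2b5, the catalytic epsilon subunit, one of -1.29 (adjusted p = 0.991 for both), per the authors' deposited table. Eif2b4 was computed at about 2.96 counts in distal and 20.5 in proximal. With the distal side set at 3 counts, the floor used here, its proximal level would be 2.07-fold higher, and that ratio leaves out counting error. For Eif2b3 the recovered counts were 1, 1, 0, 0 and 0 in the distal regions and 3, 6, 1, 2 and 0 in the proximal ones, where distal regions 1 to 5 and proximal regions 1 to 5 are ordered by falling depth.

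The eIF3 complex was the largest group, and none of its 14 genes passed. Of them 9 (64.3%) were positive, beside 54.5% of all listed genes, with a median log2 change of 0.17 per the authors' deposited table. Eif3a, the scaffold of the complex, came nearest, at 52.8 in distal and 40.1 in proximal. Its log2 change was 0.40 (95% interval -0.005 to 0.80, unadjusted p = 0.0527, adjusted p = 0.948) in the authors' deposited table. Eif3e stood at 69.2 and 63.4 with an interval from -0.20 to 0.45, and Eif3h at 27.8 and 24.0. Eif3d, a subunit that can itself bind the cap, was at 18.1 and 12.5, and Eif3c, part of the core, at 19.6 and 22.7. The range over the 14 genes ran from -0.40 (Eif3m) to 0.90 (Eif3j2) in the authors' deposited table. Eif3j2 and Eif3j1 encode nearly the same protein, and the end of a coding transcript of Eif3j2 matched Eif3j1 at 99.7% identity. How reads shared by that pair were assigned is not given in the sources used here, so their separate values (0.90 and -0.05 in the authors' deposited table) are uncertain.

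None of the 7 regulators of initiation passed. Their median log2 change was 0.00 in the authors' deposited table. Among the kinases that phosphorylate eIF2 alpha, Eif2ak3 (PERK, the sensor of endoplasmic reticulum stress) stood at 8.86 in distal and 11.4 in proximal. Eif2ak4 (GCN2, the sensor of amino acid shortage) was at 10.0 and 9.68, Eif2ak1 (HRI, the haem-regulated kinase) at 8.92 and 5.82, and Eif2ak2 (PKR, the sensor of double-stranded RNA) at 5.74 and 7.02. All 4 intervals included 0. Of the repressors of cap binding, Eif4ebp2 was the best covered and was nearly equal on both sides, at 29.2 and 29.1 with an interval from -0.48 to 0.48. Eif4enif1, which carries eIF4E into the nucleus, was at 22.2 and 19.8, and Eif4ebp1 at 3.34 and 3.51.

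Apart from Eif5a, no elongation factor passed. Eef1b2, a nucleotide exchange subunit of eEF1, had the highest mean per kb of its longest coding transcript of all members, 62.9 normalized counts per kb, ahead of Eif4h at 58.9, Eif3e at 44.0, Eif2s2 at 29.6 and Eif5a and Eif4g2 at 29.3 each. No error is given for that order, and division by length assumes reads from the whole transcript. By the mean alone Eif4g2 was first, Eif4h the second and Eef1b2 the third. The level of Eef1b2 was 130 in distal and 114 in proximal, with a log2 change of 0.20 (95% interval -0.07 to 0.47) in the authors' deposited table. Eef2, the translocation GTPase, stood at 40.0 and 34.2 with an interval from -0.43 to 0.88. Eef1g and Eef1d, also of the eEF1 complex, had point estimates on opposite sides. Eef1g was at 12.2 in distal and 6.24 in proximal, from about 35.7 and 60.2 counts, and its log2 change was 0.97 (95% interval 0.08 to 1.86, unadjusted p = 0.0331, adjusted p = 0.772) in the authors' deposited table. Eef1d was at 5.93 and 7.96, with a log2 change of -0.43 (adjusted p = 0.991) per the authors' deposited table.

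Eef1a1 encodes the main eEF1A protein outside muscle and nerve, one of the most abundant proteins of a cell, and was listed near 0. Its mean was 0.493 normalized counts in the authors' deposited table, and per kb it ranked 66 of the 69 members at 0.275. Only 7 counts were recovered, 1 in the fourth distal region and 3, 1, 0, 2 and 0 in the proximal regions. The distal share of the counts was 14.3% (95% exact Clopper-Pearson interval 0.361% to 57.9%), beside a distal share of depth of 23.3%. No direction can be read for Eef1a1 at this depth. The end of a coding transcript of Eef1a1 matched 10 processed pseudogenes, at up to 99.7% identity over at least 200 bases. The last 300 bases of its longest coding transcript had no such match. The last 60 coding bases of Eef1a1 (GRCm38 chr9:78478449-78489151, minus strand) and the same stretch of 2 of those pseudogenes, Gm13456 (chr2:40555752-40557116) and Gm6170 (chr1:128520073-128521460), are shown because a read from this stretch has more than 1 perfect match. They are identical, with 0 mismatches of 60 bases, and end in the stop codon.
Eef1a1: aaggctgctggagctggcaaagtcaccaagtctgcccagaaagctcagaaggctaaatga
Gm13456: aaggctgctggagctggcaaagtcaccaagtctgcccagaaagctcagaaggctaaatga
Gm6170: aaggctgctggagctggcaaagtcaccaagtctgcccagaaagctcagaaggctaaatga

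Such copies were found for 11 of the 69 members (15.9%), and for 5.57% of the 13877 listed genes searched. Counted on the longest coding transcript alone, they were found for 3 members (4.35%), Eif3m, Eif3j2 and Eif4a3, and for 2.44% of the genes, and Eef1a1, Eif1 and Eif5a had none. With a mean of at least 10 the shares on any coding transcript were 7 of 37 members (18.9%) and 7.12%. Eif1 matched 12 copies and had a mean of 36.0 normalized counts, and Eif4a3 matched 3 and had 25.8, in the authors' deposited table. Eif5a matched 1 pseudogene, Eif5al3-ps, at 96.9% identity, and Eif4g2 matched none. Eif4a1 had no copy at its transcript end but matched 3 pseudogenes along its length, of which Eif4a-ps4 was 99.9% identical over 1218 bases. How reads with several matches were treated is not given in the sources used here, and the part of these copies in the values was not tested.

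**Figure D4:**
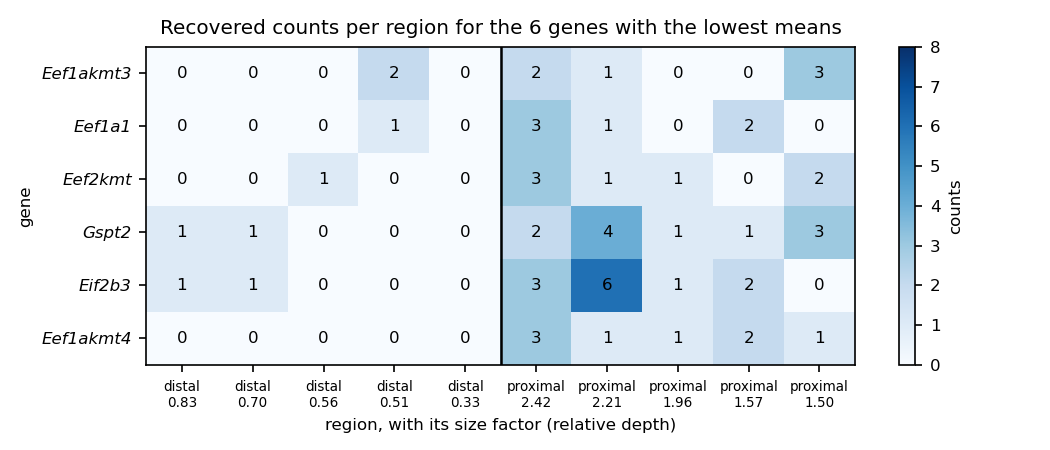
Counts recovered in each of the 5 distal and 5 proximal regions (columns, with the size factor as relative depth) for the 6 genes with a mean up to 1.2 (rows). No gene exceeds 2 counts in a distal region, and the highest value is 6, for Eif2b3 in the second proximal region.

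The 7 regulators of elongation were all below a mean of 10, and none passed. Eef2k, the kinase that inhibits eEF2, stood at 5.90 in distal and 4.81 in proximal with an interval of the log2 change from -0.74 to 1.33. The lysine methyltransferases of eEF1A, Eef1akmt2 and Eef1akmt1, were at 6.13 and 7.67 and at 6.81 and 5.51. Eef1akmt3, Eef1akmt4 and the eEF2 methyltransferase Eef2kmt had 8 counts each in all regions together. Eef1akmt4 had 0 in the distal regions, where the floor of 3 counts stands for a level of 1.02 normalized counts, and 3, 1, 1, 2 and 1 in the proximal ones, a level of 0.829. A count of 0 in distal thus does not show a difference at this depth.

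The release factors had point estimates on opposite sides, and none passed the adjusted test. Gspt1, the eRF3 GTPase, stood at 24.5 in distal and 16.2 in proximal, from about 71.6 and 157 counts. Its log2 change was 0.59 (95% interval 0.10 to 1.09) per the authors' deposited table, where the unadjusted p was 0.0192 and the adjusted p 0.579. Etf1, its partner eRF1, was at 7.88 in distal and 14.6 in proximal, from about 23.1 and 141 counts. The authors' deposited table gives it a log2 change of -0.89 (95% interval -1.73 to -0.05), an unadjusted p of 0.0386 (adjusted p = 0.825). Both were named for an unadjusted p under 0.05, with opposite signs, so their intervals lie apart by that choice. The difference between the genes was not tested. Gspt2, the eRF3 paralogue without introns on X, had 13 counts, of which 2 were distal (15.4%, 95% exact Clopper-Pearson interval 1.92% to 45.4%).

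Of the 3 genes with other roles, Eif4a3, the helicase of the exon junction complex, stood at 27.1 in distal and 24.6 in proximal. Eef1e1, a subunit of the tRNA synthetase complex, was at 7.61 and 6.26. Eif1ad, a protein with an eIF1A-like domain, had the lowest log2 change of the members, and did not pass the adjusted test. It stood at 1.08 in distal and 6.48 in proximal, from about 3.16 and 62.6 counts. In the authors' deposited table its log2 change was -2.59 (SE 0.90, 95% interval -4.34 to -0.83), with an unadjusted p of 0.00387 (adjusted p = 0.228). Its locus (GRCm38 chr19:5366741-5371526, plus strand) overlaps Banf1 on the opposite strand, and strand use in counting is not given in the sources used here.

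The wider machinery of translation was read from 6 lists with 71 genes, of which 68 were listed in the authors' deposited table. None of the 68 passed the adjusted test, which 0.977% of all listed genes passed. None had an unadjusted p under 0.05, where 2.56% (higher in distal) and 3.51% (higher in proximal) of all listed genes did. Changes were positive for 34 of the 68 (50%), beside 54.5% of all listed genes, and the median log2 change was 0.00. The 21 genes of the cytosolic tRNA synthetases and their complex had a median of 0.05, and the best covered, Eprs, had a mean of 45.0 and a log2 change of -0.14 per the authors' deposited table. Pabpc1, the poly(A)-binding protein that touches eIF4G, had a mean of 203 and a log2 change of 0.09 (95% interval -0.11 to 0.29) in the authors' deposited table. The 15 genes of poly(A) binding, reinitiation and recycling had a median of -0.10, and the 9 mitochondrial translation factors one of -0.04, per the authors' deposited table. Of those 9 factors only 1 had a mean of at least 10. For mTORC1 and cap-binding signalling, which acts on the 4E-binding proteins, the median over 12 genes was 0.15. Over the 6 of these with a mean of at least 10 it was 0.01. Akt1, the best covered, was at 0.04 with a mean of 70.4, in the authors' deposited table. The 9 genes of the integrated stress response, downstream of the eIF2 alpha kinases, had a median of -0.14, and 3 had a mean of at least 10. Ddit4 had the highest mean of that list, 30.9, and a log2 change of -0.14, and Atf4, the transcription factor of the response, had a log2 change of -0.20 (95% interval -0.89 to 0.49) in the authors' deposited table.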

How the data were processed

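Polyadenylated RNA was measured in 2 libraries, 1 per side, with 5 barcoded regions in each. The file is a table of the authors' own comparison in the layout that DESeq2 writes, per the file headers. The mean is a signal in normalized counts, averaged over all regions and deposited by the authors as 1 value per gene. A log2 change, distal over proximal, with a standard error was also deposited for each gene. The statistic is a score that the authors computed as the log2 change over its standard error. The deposited p-value and adjusted p (Benjamini-Hochberg) come from the authors' Wald test, adjusted over more features than are listed. The aligner, the counter, the annotation and any treatment of strand or of reads with several matches are not given in the sources used here. The submitters' processing notes name the builds mm10 and GRCm38.

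No model was refitted. Intervals are normal 95% intervals from the deposited standard error. Size factors of the 10 regions were read from the lowest means, where genes with 1 count in 1 region share a step of at least 20 genes. These size factors gave the counts in each region for the 6 members with a mean up to 1.2. A region was taken as distal where the median deposited log2 change was higher for genes with 2 counts than with 1. Otherwise it was taken as proximal, and these sides were not checked against values per region. Levels of the other members follow from the mean and the log2 change, and counts from levels and size factors. A floor of 3 counts per side was used. Clopper-Pearson intervals and the level at the floor cover counting error only, and ratios at the floor leave it out. Copies were transcripts of other genes in GENCODE M21 that matched the last 300 bases of any coding transcript over at least 200 bases at 95% identity (BLAST 2.17.0). Coordinates are those of M21 (GRCm38). Promoters came from RefSeq (GRCm38.p6), where 53 of 69 members matched by symbol. Tables were computed with Python 3.11.15, pandas 2.3.3 and scipy 1.17.1, and part of the computations was tested on simulated data. That test did not cover how the depth and side of each region, or the counts of thinly covered members, were recovered.

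Members and lists were chosen with earlier results of these data known. Named by rule were members with a p under 0.05, the best covered and the most changed of each role, paralogue pairs, members at 3 counts or fewer, and the best covered genes of the pathway lists. Other members and pathway genes were named after their values were seen, to account for their group. Alternatives changed the threshold, the features adjusted over, the centre of the log2 changes, the size of the change, the treatment of copies, the minimum mean and the class of Eif5a.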

Additional observations from a re-analysis of the deposited data

How the results depend on the processing

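The count of 3 called genes ran from 1 to 3 over 11 alternatives. Eif4a1 was lost, leaving 2, at a threshold of 0.01 and where the changes were centred on the all-gene median. The count was 2 as well with a log2 change of at least 0.5 (without Eif4g2) and 2 without members that have a copy (without Eif5a). With members left out that match a copy anywhere along a coding transcript, which removes 20 of the 69, 1 call was left, Eif4g2; this alternative was chosen after seeing the data, and it is lower because the other 2 called genes are left out by construction. The other 6 alternatives gave 3.

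The median log2 change over all members ran from -0.05 to 0.12. The median of the 3 release factors was -0.67, and -0.15 with a mean of at least 1 or 10, which leaves out Gspt2, and -0.15 with Gspt2 at its bound. Centring on the median of all listed genes (0.07) turned the sign of 5 genes that were not called, to -0.013 for Eif2ak4, -0.048 for Eif2b1, -0.034 for Eif2s1, -0.066 for Eif4ebp2 and -0.0498 for Eif5. Of the other values of named members under both centrings, 98 kept their direction and their side of the threshold, and Eif4a1 lost its call under 1. The number of intervals within a change of 1 was 30 and became 31 with that centring, an alternative that was not planned.

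No paired analysis was possible because values of single regions are not in the table analysed here, and leaving out a region was not run. At the distal depth, 7 members had 3 or fewer distal counts, and no direction is read from them.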

Other observations

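Between Eif4a1 and Eif5a on chromosome 11 the GENCODE M21 annotation has 23 coding genes, of which 14 were listed in the authors' deposited table. None of the 14 had an adjusted p under 0.05 there, which 0.977% of all listed genes had. An unadjusted p under 0.05 was found for 2 of the 14. Among all listed genes, 2.56% had such a p with more RNA in distal and 3.51% with more in proximal. Senp3, a SUMO protease, had a log2 change of 0.97 (SE 0.45, adjusted p = 0.756) and Chrnb1, a subunit of the muscle acetylcholine receptor, one of -3.09 (SE 1.05, adjusted p = 0.204) in the authors' deposited table. Changes were positive for 9 of the 14, beside 54.5% of all listed genes. The 9 include Tnfsfm13, at a mean of 0.0638, with the log2 change of 1.19 that genes with 1 proximal count carry. That gene also enters the median. The median log2 change was 0.13, and 4 of the 14 had a mean of at least 10 in the authors' deposited table. Polr2a, the largest subunit of RNA polymerase II, was the best covered of them, with a mean of 41.4 and a log2 change of 0.36 (SE 0.20, adjusted p = 0.991) in the authors' deposited table.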
